A study of Mus musculus with 6 samples.

Results

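Histone genes were examined in bulk RNA-Seq of CD8+ donor T cells collected in the BM of GC-treated and vehicle-treated BMT recipients. Members were taken by symbol alone, as the genes named for the linker histone H1 and for the core histones H2A, H2B, H3 and H4, and 37 of the 14051 listed genes qualified. Of these, 28 were classed by symbol as replication-dependent genes of the histone clusters and 8 as replacement variants. H2ax, which shares features of both, was counted apart. The class of H4f16, counted among the 28, could not be checked, since it was not found in the annotation used. The Gencode M39 annotation holds 81 protein-coding genes whose symbols fit, and only 36 of these are listed. Counts, medians and read shares below therefore describe the listed genes, not whole families. B6D2F1 recipients had been given CD3+ T cells purified from donors of the B6.CD45.1 strain, with dexamethasone at 5 mg/kg/day i.p. in the GC-treated group or methyl β-cyclodextrin alone in the vehicle-treated group, from day -1 to day 5. On day 5 an i.v. anti-CD45 antibody marked the cells inside vessels, and donor CD8+ T cells with this mark were isolated by cell sorting from pooled BM of each biological group. Each group had 3 libraries. The sources do not say whether each library came from its own pool of mice, so the p-values measure the spread between these libraries, which may be partly technical. No ages are stated in the sources, and no engineered allele is named for these donors beyond the CD45.1 marker.

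DNA in the nucleus is wrapped around octamers of H2A, H2B, H3 and H4, and H1 binds the linker between them. Replication-dependent histone genes lie in clusters, lack introns, are transcribed in S phase when new DNA has to be packaged, and give mRNAs that end in a conserved stem-loop in place of a poly(A) tail. Replacement variants are expressed through the cell cycle from genes outside the clusters, and their mRNAs are polyadenylated. Activated T cells divide quickly and need both. The cDNA protocol used here, SMART v4, primes on poly(A) tails, so the stem-loop mRNAs are captured poorly by design, and their values are levels of captured transcript.

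The stem-loop separated the classes in the genome sequence, and several are shown because they define the replication-dependent class. A stem-loop lay within 200 bases after the stop codon in 26 of the 27 replication-dependent genes with coordinates in GRCm39 with Gencode M39, starting 21 to 40 bases after it, and in 0 of 8 replacement variants. H2ax, the variant that is phosphorylated at DNA breaks and is known to make both kinds of mRNA end, had one at 46 bases. Among the 13394 other listed genes searched, 2 had a match (0.0149%), Btbd10 and Ppm1b. The sequences below run 5′ to 3′ with the 16 bases of the stem-loop in capitals. The search accepted only 16-base matches to a fixed pattern with some positions free, so the sequences had to read alike at the other positions. At the free positions, most had a GGCTCT stem, and the H4 genes and H2ax had a GGCCCT stem.
H1f5, chr13:21964002-21964027, minus strand: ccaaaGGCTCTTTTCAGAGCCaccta
H2ac13, chr13:21901004-21901029, plus strand: ccaaaGGCTCTTTTCAGAGCCactca
H2bc8, chr13:23756012-23756037, plus strand: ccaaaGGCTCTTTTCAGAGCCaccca
H2bc11, chr13:22227803-22227828, plus strand: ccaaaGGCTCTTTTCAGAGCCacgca
H3c15, chr3:96145796-96145821, minus strand: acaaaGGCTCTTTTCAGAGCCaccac
H4c3, chr13:23882067-23882092, minus strand: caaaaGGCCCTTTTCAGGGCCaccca
H2ax, chr9:44246532-44246557, plus strand: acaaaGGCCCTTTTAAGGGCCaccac

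All 27 replication-dependent genes with coordinates have a single exon in the transcript that the annotation marks as representative. Of these genes, 23 are on chromosome 13 and 4 on chromosome 3. The exception was H2bc21, which had no match to the pattern, and a stem-loop with other letters would have been missed. H2bc21 is a cluster gene on chromosome 3 whose single annotated exon runs over 2620 bases at chr3:96128435-96131054 on the plus strand. H4f16 was not found in this annotation and has no coordinates here. Promoters, taken as 250 bases before to 50 bases after the annotated start, were searched for known motifs. TATAAA or its reverse TTTATA was in 66.7% of the replication-dependent promoters against 8.84% of 13727 listed genes, and CCAAT or ATTGG was in 88.9% against 38.4%. The octamer ATTTGCAT or ATGCAAAT, the known element of H2B promoters, was in 6 of 10 H2B promoters (60%) against 1.49% of all. The H1 box AAACACA or TGTGTTT was in 3 of 5 H1 promoters (60%) against 5.33%, and in 22.2% of all replication-dependent promoters. Of the 8 replacement promoters, 12.5% held the TATA letters, 62.5% the CCAAT letters, 12.5% the octamer and 25% the H1 box. None of these motifs was confined to the replication-dependent class. Each motif was searched on both strands, matches of different motifs may overlap, and a match is a description of the sequence only. Several cluster genes are annotated by their coding part alone, so some windows may be shifted from the promoter. The annotated start of H1f3, chr13:23737436, lies far before its stem-loop at chr13:23739956. The H2bc21 window takes in the TTTATA beside the H2ac20 start, with no TATA match in the 150 bases before its own start.

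H2ac20 and H2bc21 stand head to head on chromosome 3 and share the 238 bases between their starts, chr3:96128197-96128434. The stretch below is printed on the strand of H2bc21, with TATA, CCAAT and octamer matches in capitals, because H2bc21 was the 1 histone gene lower in the GC-treated libraries at an unadjusted p under 0.05.
H2ac20 and H2bc21, between the starts: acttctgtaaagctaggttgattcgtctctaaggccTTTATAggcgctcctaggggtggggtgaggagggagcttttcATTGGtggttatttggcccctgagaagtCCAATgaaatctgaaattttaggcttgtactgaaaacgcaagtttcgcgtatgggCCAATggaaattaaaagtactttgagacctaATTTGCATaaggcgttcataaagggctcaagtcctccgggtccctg

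The 150 bases before the start of H2bc8, the histone gene with the smallest p, hold a CCAAT box, an octamer and a TATA box in that order, and those of H2bc11 hold 3 CCAAT matches and no octamer. They are chr13:23755420-23755569 and chr13:22227234-22227383, both on the plus strand.
H2bc8: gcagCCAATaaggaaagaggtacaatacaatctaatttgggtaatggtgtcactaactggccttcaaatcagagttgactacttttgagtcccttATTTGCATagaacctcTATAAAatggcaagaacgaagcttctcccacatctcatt
H2bc11: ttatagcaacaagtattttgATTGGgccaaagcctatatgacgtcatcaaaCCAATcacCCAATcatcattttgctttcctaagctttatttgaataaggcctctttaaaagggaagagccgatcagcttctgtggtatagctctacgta

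The deposited values are normalized counts, meaning read counts of each library divided by 1 size factor for that library. Depth ran from 60949593 to 76888118 recovered reads per library. In the sentences below 3 values in a row are those of replicates 1, 2 and 3 of a group. The sorted cells carried CD8 T cell transcripts at a high level, and Lck, the kinase of the T cell receptor complex, had a mean normalized count of 101342. Of the neutrophil markers, 10 of 12 were listed, and their summed normalized count was 1833, 12641 and 8880 (GC-treated) versus 780, 456 and 4229 (vehicle-treated), led by Ltf, which was at 0 in 1 library. Of the erythroid markers, 9 of 11 were listed with sums of 326 to 378 in the GC-treated and 424 to 818 in the vehicle-treated libraries, and Slc4a1 was at 0 in 4 of the 6. GC-treated 2 and GC-treated 3 also stood apart from the other libraries in the histone genes themselves, as given below. The part of these differences in any histone value was not tested.

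Replacement variants made up most of the reads on listed histone genes, in a protocol that captures stem-loop mRNAs poorly. All histone genes together took 0.289% to 0.359% of the reads on listed genes, and replacement variants took 88.4% to 89.9% of the histone reads, H2ax 5.96% to 7.08% and the replication-dependent genes the rest. On the scale of mean normalized count per kb of annotated exon, H2az1, the H2A.Z variant of promoters, had the highest level at 40383, followed by H3f3b, one of 2 genes for H3.3, at 21563 and H2ax at 9927. H2ac13 led the replication-dependent genes at 6921. The other H3.3 gene, H3f3a, was at 4920 and H2aj, a polyadenylated H2A, at 2355. Among the 27 replication-dependent genes with a length the level ran from 31.3 to 6921 with a median of 215, and 3 were above 1000 (H2ac13, H1f5 and H2bc11). The 8 replacement variants ran from 1.41 to 40383 with a median of 2137.

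**Figure D1:**
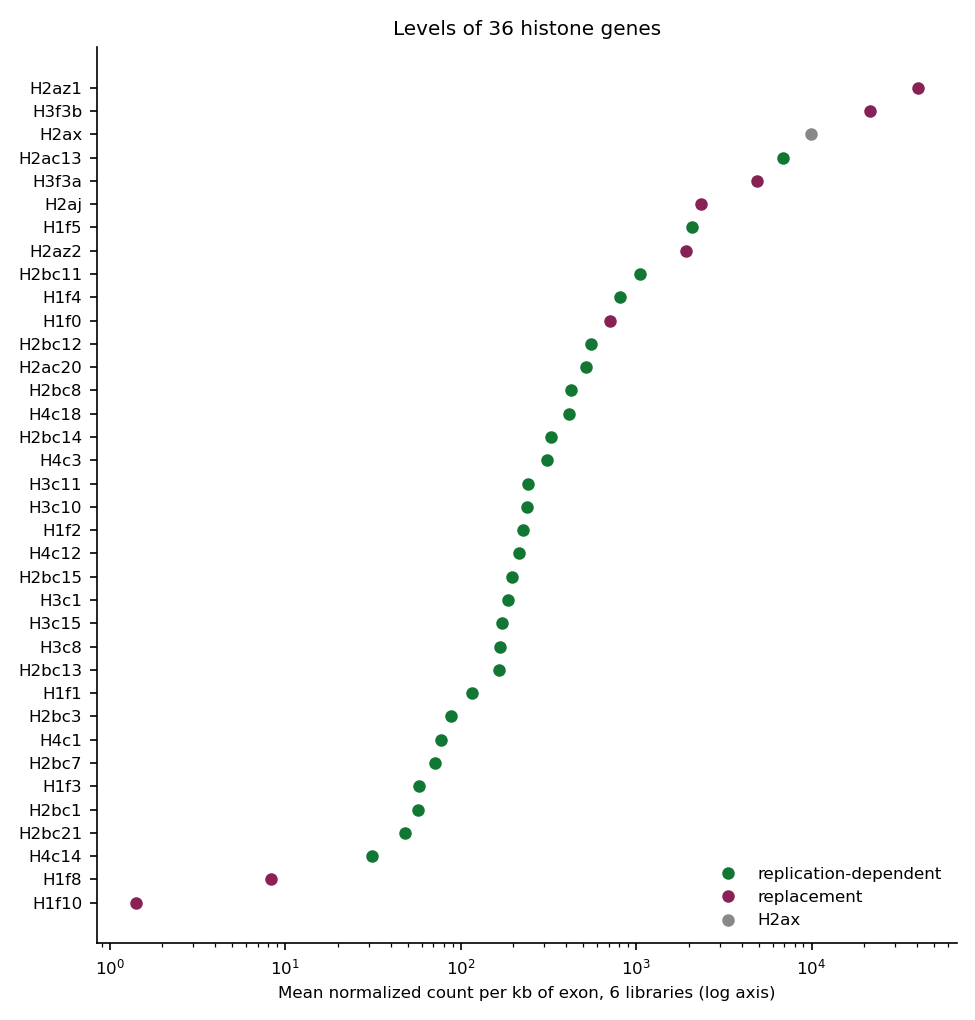
Mean normalized count per kb of exon over the 6 libraries (horizontal log axis) for the 36 histone genes with an annotated exon length, 1 point per gene, coloured by class. The replacement variants H2az1 and H3f3b lie at the top at 40383 and 21563, most replication-dependent genes lie well below 1000, and the replacement variants H1f8 and H1f10 lie at the bottom.

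Levels per kb carry a limit from the annotation, since several cluster genes are annotated by their coding part alone and H1f3 by an exon of 7425 bases. The lengths are from Gencode M39, while the authors counted reads on an earlier Gencode release. H1f10 had 0 to 4 reads in a library and failed the filter, which asked for 3 or more libraries at 10 or above, so 36 of the 37 genes were tested. H1f8, the oocyte linker histone, passed narrowly, with 2, 2 and 14 reads in the GC-treated and 16, 19 and 5 in the vehicle-treated libraries.

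The comparison of the GC-treated with the vehicle-treated libraries asked which histone genes differed with treatment. No histone gene passed an adjusted p of 0.05 in limma, edgeR or DESeq2, against 0% of the 11649 genes tested by limma. At an unadjusted p under 0.05 in limma, 4 of 36 were higher in the GC-treated libraries, where 2.12% of all tested genes were, and 1 of 36 was lower, where 5.07% were. The 4 were the cluster genes H2bc8 and H2bc11 and the replacement variants H3f3b and H2aj, and the 1 was H2bc21. In edgeR and DESeq2 the same 4 had an unadjusted p under 0.05, and H2bc21 had 0.079 and 0.084. The groups did not overlap for 5 histone genes with higher GC-treated values and 1 with lower, where 6.4% of all tested genes did not overlap in each direction. In bulk libraries fewer cells that express a gene and less RNA per cell cannot be told apart.

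H2bc8 encodes an H2B of the large cluster. Normalized counts of this gene were 312, 271 and 422 (GC-treated) versus 209, 204 and 165 (vehicle-treated). Every GC-treated library lay above every vehicle-treated one, with GC-treated 3 the highest. The means were 335 ± 78.1 and 193 ± 24.4 (SD, n = 3 each), a log2 fold change of 0.78 with a standard error of 0.24 (limma, unadjusted p = 0.0093, adjusted p = 0.62). Without GC-treated 3 the log2 fold change was 0.60, the lowest of the values with a library left out.

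H2bc11, a further H2B of the cluster, had 524, 515 and 711 in the GC-treated libraries and 417, 313 and 455 in the vehicle-treated ones, in the order 1, 2 and 3. GC-treated 3 again lay above all others and the groups did not overlap. The log2 fold change was 0.56 with a standard error of 0.21 (limma, unadjusted p = 0.024, adjusted p = 0.62). H2bc7, the third cluster gene without overlap, was low, at 38.1, 38.7 and 44.1 against 27.3, 30.3 and 19.8, with a log2 fold change of 0.64 and a standard error of 0.47 (limma, unadjusted p = 0.20).

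H2bc21, the cluster gene without a stem-loop match in the window, ran the other way. It had 139, 86.3 and 60.7 (GC-treated) versus 164, 164 and 142 (vehicle-treated). GC-treated 1 lay close under the lowest vehicle-treated library, and GC-treated 2 and 3 lay far below it. The log2 fold change was -0.79 with a standard error of 0.34 (limma, unadjusted p = 0.047, adjusted p = 0.62). Its partner across the shared 238 bases, H2ac20, had 374, 151 and 256 against 315, 306 and 222, overlapping groups and a log2 fold change of -0.19 with a standard error of 0.33.

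H3f3b encodes H3.3, the replacement H3 laid down independently of DNA replication. It had 64889, 67848 and 76523 (GC-treated) versus 60928, 59522 and 59593 (vehicle-treated). The vehicle-treated values lay close together and all GC-treated values above them, for a log2 fold change of 0.21 with a standard error of 0.083 (limma, unadjusted p = 0.030, adjusted p = 0.62). H3f3a, which encodes the same H3.3 protein, had 29499, 27981 and 32187 against 29883, 32478 and 28535, with overlapping groups and a log2 fold change of -0.02 with a standard error of 0.087.

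H2aj had 4378, 4762 and 5656 in the GC-treated and 4344, 3759 and 3917 in the vehicle-treated libraries. The lowest GC-treated value lay just above the highest vehicle-treated one, and the log2 fold change was 0.29 with a standard error of 0.12 (limma, unadjusted p = 0.033, adjusted p = 0.62). The H2A.Z genes had overlapping groups. H2az1 was at 83425 ± 9148 against 79803 ± 6233 (SD, n = 3 each), and H2az2 at 6732 ± 485 against 6375 ± 804. H1f0, the linker histone of resting and differentiated cells, was at 1417 ± 199 against 1505 ± 133, and H2ax at 13675 ± 658 against 13802 ± 418. For these 4 genes the log2 fold change lay between -0.094 and 0.084, and its sign turned in each when 1 library or another was left out. H1f8 had a log2 fold change of -1.48 with a standard error of 1.10, at the few reads given above.

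**Figure D2:**
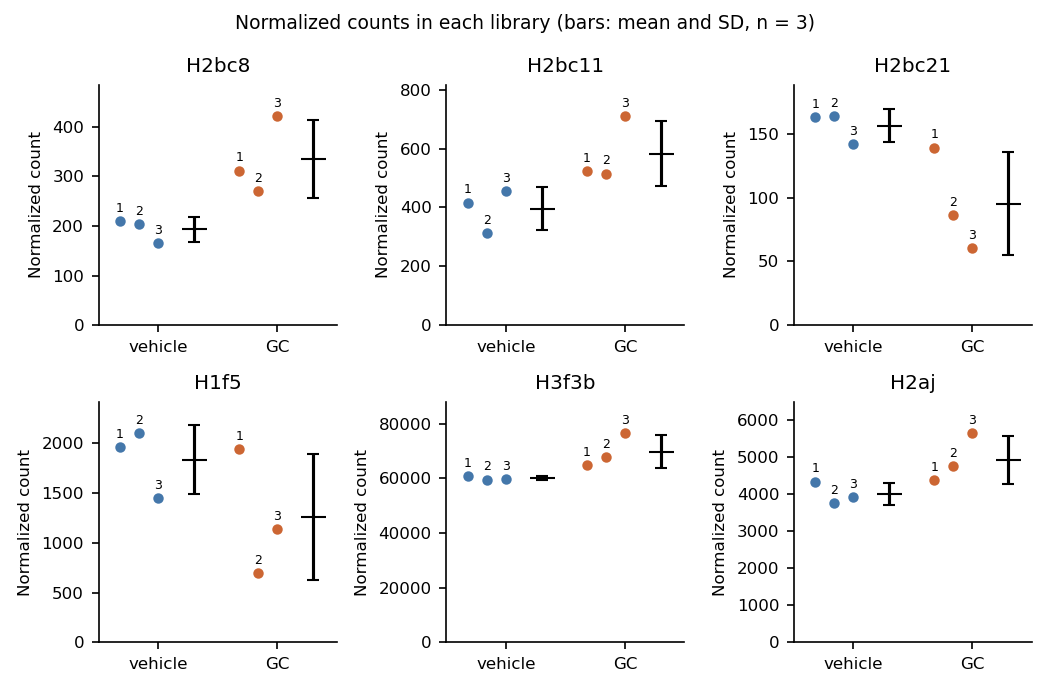
Normalized count (vertical axis, from 0) in each library for 6 histone genes, vehicle-treated in blue and GC-treated in orange, with the replicate number above each point and the mean ± SD of 3 libraries in black. The groups do not overlap for H2bc8, H2bc11, H2bc21, H3f3b and H2aj, and overlap for H1f5, where GC-treated 1 at 1945 lies among the vehicle-treated libraries.

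The families of the replication-dependent class leaned in different directions, which is given as a description without a test. The log2 fold change was above 0 in 18 of the 28 genes, with a median of 0.16 and a range of -0.79 to 0.78, where 48.5% of all tested genes were above 0 with a median of -0.0079. Of the 7 replacement variants tested, 4 were above 0, with a median of 0.061, which ran from -0.020 without vehicle-treated 3 to 0.14 without vehicle-treated 2. The 6 H4 genes were all above 0 (median 0.34), as were 9 of 10 H2B genes (median 0.33) and 3 of 5 H3 genes. The 5 H1 genes and both listed H2A genes were below 0. No gene outside those named above reached an unadjusted p of 0.05.

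**Figure D3:**
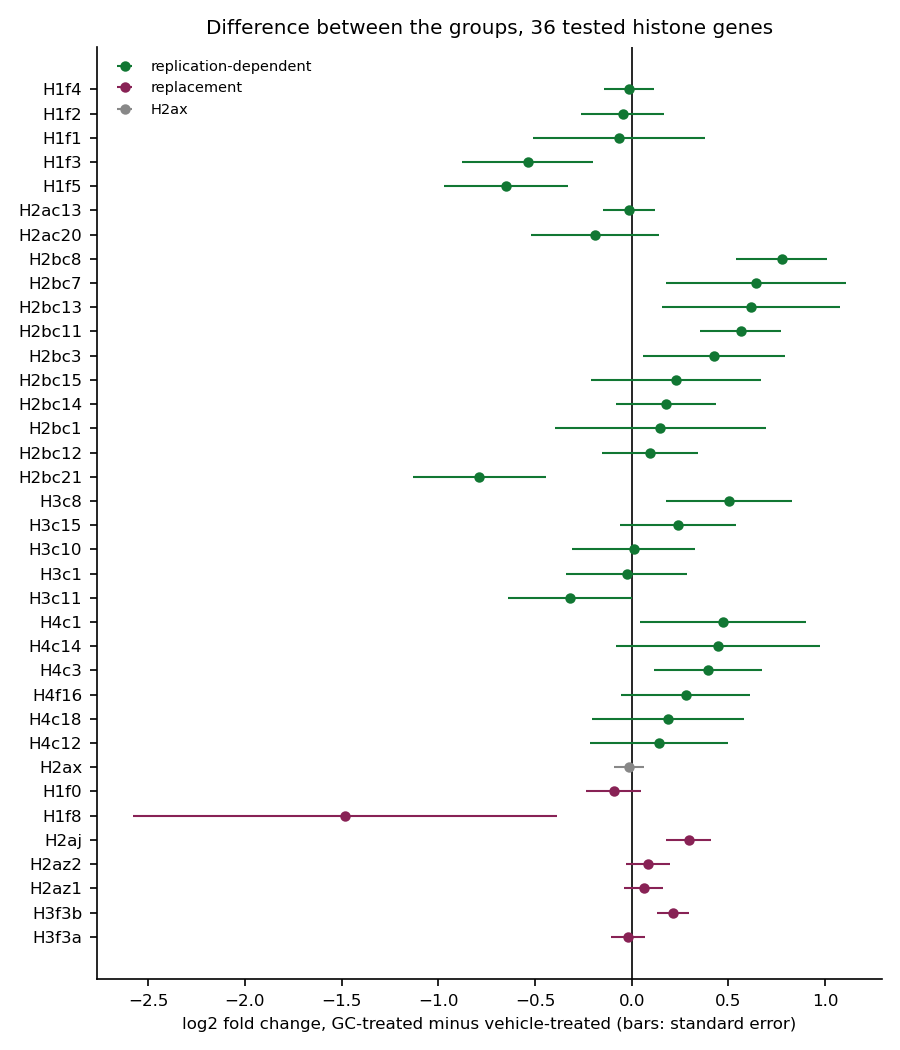
log2 fold change of GC-treated over vehicle-treated libraries with its limma standard error (horizontal axis) for the 36 tested histone genes, grouped by class and family. Most H2B and all H4 points lie to the right of 0, the 5 cluster H1 genes lie at or left of 0, and most bars of the replication-dependent genes cross or come near 0.

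Most H4 and H3 genes were low. H4c3, the highest H4 gene by normalized count, had 255, 215 and 406 (GC-treated) versus 255, 179 and 213 (vehicle-treated), so GC-treated 3 alone lay above the other 5. H4c18 repeated this with 180, 105 and 301 against 215, 127 and 142. H4f16 differed from them in that its highest value, 102, was in GC-treated 2. Of the H3 genes, H3c15 had 197, 126 and 258 against 168, 165 and 141, and H3c11 had 97.8, 67.5 and 100.2 against 124, 122 and 85.5. Both overlapped between groups.

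H1 genes showed the opposite library, GC-treated 2. H1f5, a linker histone of dividing cells, had 1945, 700 and 1138 (GC-treated) versus 1960, 2103 and 1450 (vehicle-treated). GC-treated 1 lay among the vehicle-treated values while GC-treated 2 and 3 lay below all of them. The log2 fold change was -0.65 with a standard error of 0.32 (limma, unadjusted p = 0.074, adjusted p = 0.62), and it was -1.02 without GC-treated 1 and -0.29 without GC-treated 2. H1f3 had 514, 203 and 363 against 482, 644 and 376, a log2 fold change of -0.54 with a standard error of 0.34, which was -0.84 without GC-treated 1 and -0.18 without GC-treated 2. H1f4, which came after H1f5 among the cluster H1 genes per kb, was at 1560 ± 147 against 1575 ± 160 (SD, n = 3 each). The highest cluster H2A, H2ac13, was at 2717 ± 424 against 2723 ± 210, also with its lowest value in GC-treated 2.

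Much of the class pattern lay in these GC-treated libraries. GC-treated 3 held the highest value of 18 of the 28 replication-dependent genes (64.3%), among them 8 of 10 H2B genes, where it held the highest value of 28.4% of all tested genes. GC-treated 2 held the lowest value of 15 of the 28, among them all 5 H1 genes, where it held the lowest of 16.7% of all tested genes. The median deviation of the class from each gene's mean was 0.20, -0.31 and 0.42 on the log2 scale (GC-treated) versus 0.059, -0.0047 and -0.18 (vehicle-treated). GC-treated 2 and 3 thus lay at opposite ends with the vehicle-treated libraries between them. Without GC-treated 3, 12 of the 28 genes and 6 of the 10 H2B genes were above 0. Without GC-treated 2, 24 of the 28 were above 0 and 2 of the 5 H1 genes below it. The median SD within a group was 24.2% of the mean in the GC-treated and 18.4% in the vehicle-treated libraries for this class, against 14.1% and 8.48% for all tested genes, and 22 of the 27 genes with a length had a mean normalized count under 300.

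**Figure D4:**
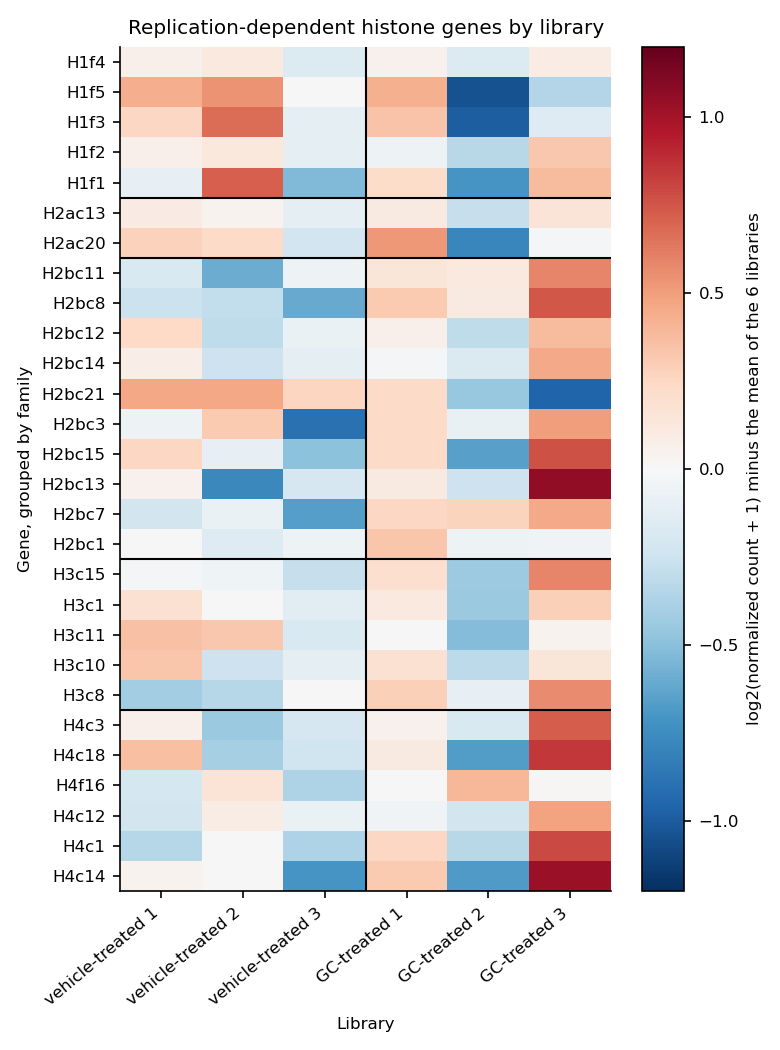
log2(normalized count + 1) of the 28 replication-dependent histone genes (rows, by family) in the 6 libraries (columns), as the deviation from each gene's mean over the libraries, red above and blue below. GC-treated 3 is the reddest column for most H2B, H3 and H4 genes, with H2bc21 as its bluest cell, and GC-treated 2 is the bluest column for H1.

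Shares within a library, which no scaling between libraries can move, were taken beside the fold changes. Replication-dependent genes took 5.14%, 3.64% and 4.54% of the histone reads (GC-treated) versus 5.14%, 4.86% and 4.45% (vehicle-treated), or 4.44 ± 0.75% against 4.82 ± 0.34% (SD, n = 3 each). GC-treated 2 was the lowest and the groups overlapped. The mean share was lower in the GC-treated libraries while the median log2 fold change of the class was above 0, and H1 and H2A genes, whose fold changes were below 0, held most of these reads. The difference in the share was -0.38 percentage points with all libraries, 0.024 without GC-treated 2 and -0.72 without GC-treated 1, so its direction rested on GC-treated 2. Within the replication-dependent reads, H2B genes took 16.2%, 19.98% and 20.3% in the GC-treated and 14.9%, 12.7% and 15.7% in the vehicle-treated libraries, without overlap. H1 genes took 41.5%, 35.1% and 33.8% against 42.7%, 47.4% and 41.3%, where GC-treated 1 fell between vehicle-treated 3 and vehicle-treated 1. No p is given for these sums over the members.

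**Figure D5:**
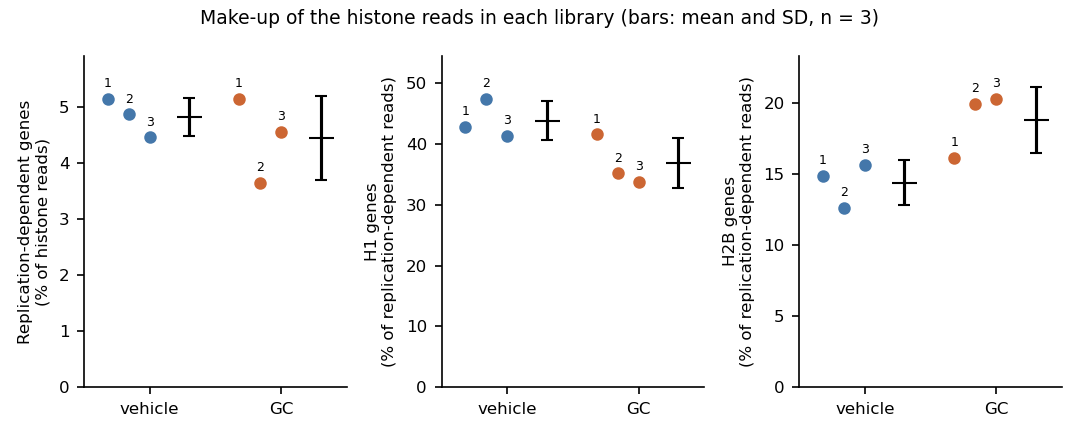
Share of histone reads in replication-dependent genes, and shares of the replication-dependent reads in H1 and in H2B genes (vertical axes in percent, from 0), per library with the replicate number above each point and the mean ± SD of 3 libraries in black. The H2B share is 16.2% to 20.3% in the GC-treated and 12.7% to 15.7% in the vehicle-treated libraries, and the other panels overlap.

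Cluster genes of a family are close copies, so a read may fit several of them. The paper gives only default parameters for the counting, and how such reads were treated is not stated. A median of 32.8% of the 100-base stretches of a replication-dependent gene also occurred in another annotated gene, up to 92% for H3c10, and 4 genes shared none (H4c14, H1f5, H1f1 and H2bc21). H2bc8 shared 44.9%, H2bc11 40.1% and H2ac13 88.4%, so the values of these genes are uncertain, while 5 of 8 replacement variants shared none and H2az1 shared 50%. The direction of the class moved with this property. Of the 17 genes with over 20% shared, 14 were above 0 with a median log2 fold change of 0.23, and of the 10 with at most 20% shared, 3 were above 0 with a median of -0.057. The split was drawn after the values were seen, puts all 5 H1 genes on the side with at most 20% shared, and its part in the result was not tested. Another annotated gene overlapped 14 of the 27 cluster genes and 6 of the 8 replacement variants, and the protocol does not mark strand.

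Genes that make or handle histone mRNA and protein were described by lists, none with a gene at an adjusted p under 0.05 in limma. At an unadjusted p under 0.05, their counts stand beside 2.12% of all tested genes higher and 5.07% lower, and their signs beside 48.5% of all tested genes above 0. Of 16 genes for the 3′ end of histone mRNA, 1 was higher and 1 lower. Slbp, the protein that binds the stem-loop, was at 28437, 33983 and 33083 (GC-treated) versus 27542, 27139 and 28095 (vehicle-treated), a log2 fold change of 0.20 with a standard error of 0.088 (limma, unadjusted p = 0.046). All GC-treated values of Slbp lay above all vehicle-treated ones. Zfp473, a zinc finger protein of the U7 processing complex, had a log2 fold change of -0.49 with a standard error of 0.20. Eri1, the exonuclease that trims the stem-loop end, had -0.16, and Snrpd3, a ring subunit that the U7 snRNP shares with the spliceosome, 0.18, and neither passed the unadjusted threshold.

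Of 13 tested genes for histone gene transcription, 1 was lower at an unadjusted p under 0.05, Gon4l, with a log2 fold change of -0.36 and a standard error of 0.14. Npat, the cyclin E-CDK2 target that drives histone transcription in S phase, had -0.21 with a standard error of 0.12. The 12 replication-coupled chaperones, which hand new H3-H4 to the fork, had 0 genes at that threshold, and their log2 fold changes ran from -0.15 to 0.15. Of the 16 replication-independent chaperones and remodelers, 4 were above 0 and 12 below (48.5% of all tested genes were above), and 2 were higher and 1 lower at the unadjusted threshold (2.12% and 5.07% of all). These were Vps72, which carries H2A.Z, at 0.24, Dek, an H3.3 chaperone, at 0.19, and Ep400, an ATPase that exchanges histone variants, at -0.45. Outside the symbol rule, the variants Macroh2a1 and Cenpa had log2 fold changes of 0.13 and -0.047.

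S phase and mitosis genes were read beside the cluster genes. Of 20 S phase genes, 12 were above 0 and 1, the flap endonuclease Fen1 at 0.49, was higher at an unadjusted p under 0.05. Fen1 had the lowest level of the list, a mean normalized count of 217, with Gins1 next at 1867. The median deviation of this list stayed between -0.039 and 0.028 on the log2 scale in all 6 libraries, so GC-treated 2 and 3, at opposite ends for the replication-dependent histone genes, lay close together here. Of 13 mitosis genes, 1 was above 0 and 12 below, and 4 were lower at the unadjusted threshold, where 48.5% of all tested genes were above 0 and 5.07% lower at that threshold. They were Mki67, the proliferation antigen, at -0.67, Cenpe at -0.42, Top2a at -0.40 and Kif11 at -0.37, named after their values were seen. The median deviation of the mitosis list was 0.053, -0.25 and -0.034 (GC-treated) versus 0.039, 0.18 and 0.097 (vehicle-treated). For the 5 H1 genes it was 0.22, -0.71 and 0.093 and 0.063, 0.54 and -0.12 in the same order, so that GC-treated 2 was the lowest and vehicle-treated 2 the highest library for both lists. The share of reads on mitochondrial genes had the same lowest and highest libraries, at 0.902%, 0.40% and 0.615% (GC-treated) versus 0.91%, 1.13% and 0.757% (vehicle-treated), and its part in the H1 values was not tested.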

How the data were processed

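Bulk RNA-Seq of sorted donor CD8+ T cells was analysed from 3 GC-treated and 3 vehicle-treated libraries. The authors aligned reads with STAR to GRCm39 and the Gencode annotation they name, counted them with summarizeOverlaps and ran DESeq2. Versions of these tools are not stated in the labels or methods. The deposited table holds a signal in which every library's counts have been divided by its size factor. Dividing each column by its smallest value above 0 gave whole reads for 100% of values, within 0.001, and these recovered reads served the alternatives.

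Histone genes were chosen by symbol. The members and lists were chosen with earlier results of these data known. The 11649 of 14051 genes that reached 10 in 3 or more libraries were tested by limma 3.58.1. It used a mean-variance trend on log2(value + 1), with Benjamini-Hochberg adjustment at 0.05. The added 1 draws fold changes of low genes toward 0, but limma values were not always the smaller. H1f8 had -1.48 in limma, -1.36 in edgeR and -1.38 in DESeq2. Alternatives were edgeR 4.0.16 and DESeq2 1.42.0 on recovered reads, other scalings, filters and pseudocounts, a block for the replicate number, and fits that left out 1 library each. An exact permutation test of 3 against 3 cannot give a p under 0.1. Named histone genes were every replacement variant, the 3 highest cluster genes of each family and those at an unadjusted p under 0.05. Genes named from the lists for histone mRNA and protein, S phase and mitosis were among the 4 with the smallest p in each. H2bc7 was added after its values were seen. Sequences and features are from GRCm39 with Gencode M39, where 13727 symbols were found.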

Additional observations from a re-analysis of the deposited data

How the results depend on the processing

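The count of histone genes at an adjusted p under 0.05 was 0 under every alternative run. Over all genes, the count lower in GC-treated libraries was 0 in limma, 2 in DESeq2 and 1 without the mean-variance trend, and with a library left out it ran from 0 to 43 (43 without GC-treated 1), while the count higher ran from 0 to 2. Histone genes higher at an unadjusted p under 0.05 numbered 4, and 1 to 4 with a library left out (1 without vehicle-treated 2 or GC-treated 3, 2 without vehicle-treated 3). Those lower numbered 1 in limma, 0 in edgeR, 0 in DESeq2, 0 with no filter, 0 with a floor of 100 and 0 to 3 with a library left out (3 without GC-treated 1). With the replicate number as a block they numbered 2. The sources do not say whether the numbers pair the samples. Deviations of same-numbered libraries correlated at 0.063, -0.14 and 0.13, which with 3 libraries per group cannot decide it.

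The median log2 fold change of the replication-dependent genes was 0.16 and ran from -0.061 to 0.28 with a library left out, and that of 18 genes with a floor of 100 was -0.0014. That of the replacement variants was 0.061 and ran from -0.020 to 0.14 with a library left out. Of 23 named histone genes, 12 kept their sign under every setting in which they were tested (10 settings for H1f8, 13 for H4f16 and 14 for the other 10), among them H2bc8 (0.60 to 0.92 with a library left out), H2bc11 (0.41 to 0.67), H3f3b (0.14 to 0.26), H2aj (0.19 to 0.38) and H2bc21 (-1.10 to -0.51). In 11 the sign turned with a library left out, where the values ran from -0.053 to 0.0070 for H2ax, -0.18 to 0.021 for H1f0, -0.020 to 0.16 for H2az2, -0.025 to 0.13 for H2az1, -0.075 to 0.031 for H3f3a, -0.19 to 0.57 for H4c18, -0.072 to 0.27 for H2bc12, -0.098 to 0.067 for H1f4, -0.093 to 0.12 for H2ac13, -0.50 to 0.15 for H2ac20 and -0.18 to 0.19 for H3c1, which was also 0.0013 in DESeq2. The causes were not tested. Low counts of most cluster genes limit their precision.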
